A study of Mus musculus with 4 samples.

Results

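The 10 genes described here encode AP-1 subunits: the Fos family (Fos, Fosb, Fosl1, Fosl2), the Jun family (Jun, Junb, Jund) and the related basic leucine zipper factors Atf3, Batf and Batf3. A FAIRE peak was counted at a gene if it overlapped the gene body or the 50 kb upstream of the gene's 5′ end, in mm10 with GENCODE symbols. By this rule 51 of the 35796 accessible chromatin regions of the series lay at these genes, made of 132 peaks in 4 libraries. All libraries came from EpRas cells, a mouse mammary gland epithelial cell line transformed with active H-Ras, at day 4, and all cells carried the Ras transgene and were transfected with siRNA. The groups were control siRNA (siControl) untreated, TGF-β-treated siControl, and TGF-β combined with siRNAs to the ETS factor genes Etv4 and Etv5, in 2 different sets (siEtv4/5 set 1 and set 2). TGF-β was TGF-beta3 at 1 ng/ml. Since both siRNA sets were measured only with TGF-β, each is compared with TGF-β-treated siControl, and the comparisons of set 1 and of set 2 share that library.

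AP-1 is a dimer of 1 Fos-type or ATF-type protein with a Jun-type protein, or of Jun-type proteins alone, that binds the palindrome TGANTCA, and with ATF partners the cAMP response element TGACGTCA. Ras and MAP kinase signaling raises the transcription and stability of Fos and Jun proteins, and Smad proteins of the TGF-β pathway bind DNA together with AP-1. AP-1 is known in mammary epithelial cells for its part in invasion and in epithelial-mesenchymal transition, with Fosl1 as a Ras-responsive member.

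FAIRE-seq sequences the DNA that is free of crosslinked protein after sonication and phenol extraction, so a peak marks accessible chromatin and not the amount of RNA. Each group was given as 1 list of peaks. Replicates may have been combined in each list, and with 1 list per group there was no spread between replicates and no test. Values are the fold enrichment of the summit over local background, as the authors' peak caller gave it, and the number of fragments stacked at the summit, recovered from the fold enrichment and its p-value. Summit fragments per M reads (FPM) use a depth estimated at 15.3 M reads in the untreated library, 16.3 M in TGF-β-treated siControl, 17.3 M in set 1 and 20.7 M in set 2. The 95% intervals cover counting error only. In cells measured in bulk, more accessible DNA per cell and more cells with accessible DNA cannot be told apart. The effect of the siRNAs on Etv4 and Etv5 RNA cannot be read from these lists.

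Peaks at the 10 genes numbered 35 in the untreated library, 43 in TGF-β-treated siControl, 29 in set 1 and 25 in set 2, while the whole lists held 22247, 28754, 22516 and 14925 peaks. The share of each list at these genes was 0.157% untreated, 0.150% with TGF-β, 0.129% in set 1 and 0.168% in set 2. Fosb had the most peaks in every library, with 9, 10, 7 and 5 in that order, and Jund came next, with 6, 8, 6 and 4, level in set 2 with Fosl1 and Atf3. At the other end, Batf and Batf3, which act mainly in lymphocytes and dendritic cells, had at most 1 peak in any library.

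**Figure D1:**
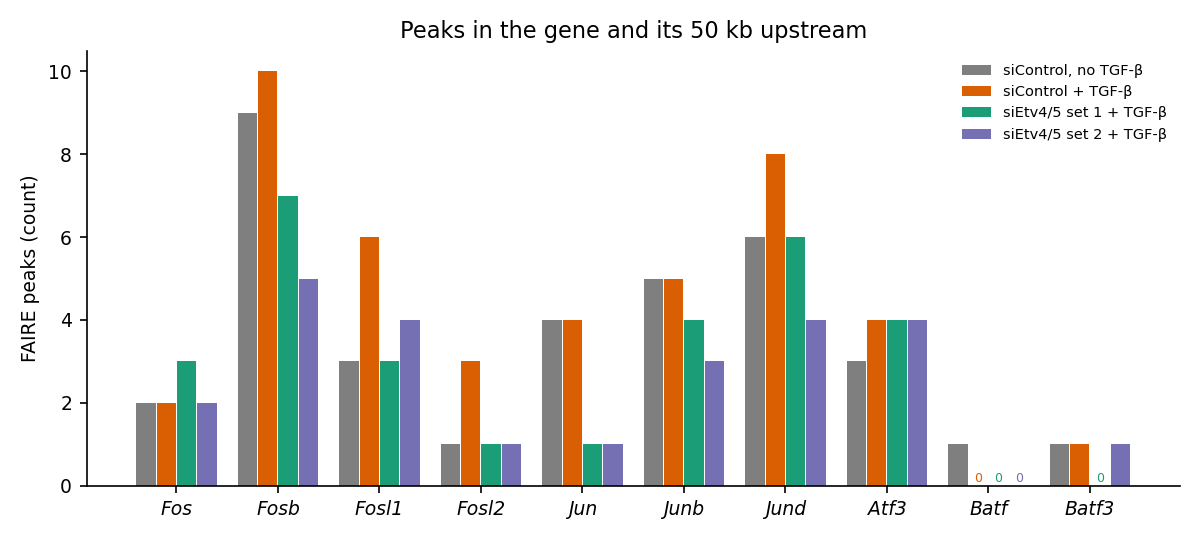
Number of FAIRE peaks (y axis, count) in the gene body and 50 kb upstream of each AP-1 subunit gene (x axis), with 1 bar per library and zeros written out. Fosb reached 10 peaks and Jund 8 in TGF-β-treated siControl, while Jun went from 4 peaks in both siControl libraries to 1 with either siRNA set.

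After merging peaks across libraries, the 10 genes held a median of 5 regions each, from 1 to 10, beside a median of 2 for the 21938 protein-coding genes. Fosb, with 10 regions, had more than 98.3% of protein-coding genes, Jund, with 9, more than 97.4%, and Junb, with 7, more than 93.2%. Batf and Batf3, with 1 region each, had more than 27.1% of genes. Of the 51 regions, 14 lay within 2 kb of a transcription start site (TSS) of the gene itself, 34 lay farther upstream and 3 lay in the gene body. The neighborhoods were shared with other genes: 16 of the 34 upstream regions lay within 2 kb of the TSS of a gene that is no AP-1 subunit, such as Ercc1 upstream of Fosb, Drap1 upstream of Fosl1, Hook2 upstream of Junb and Lsm4 upstream of Jund.

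**Figure D2:**
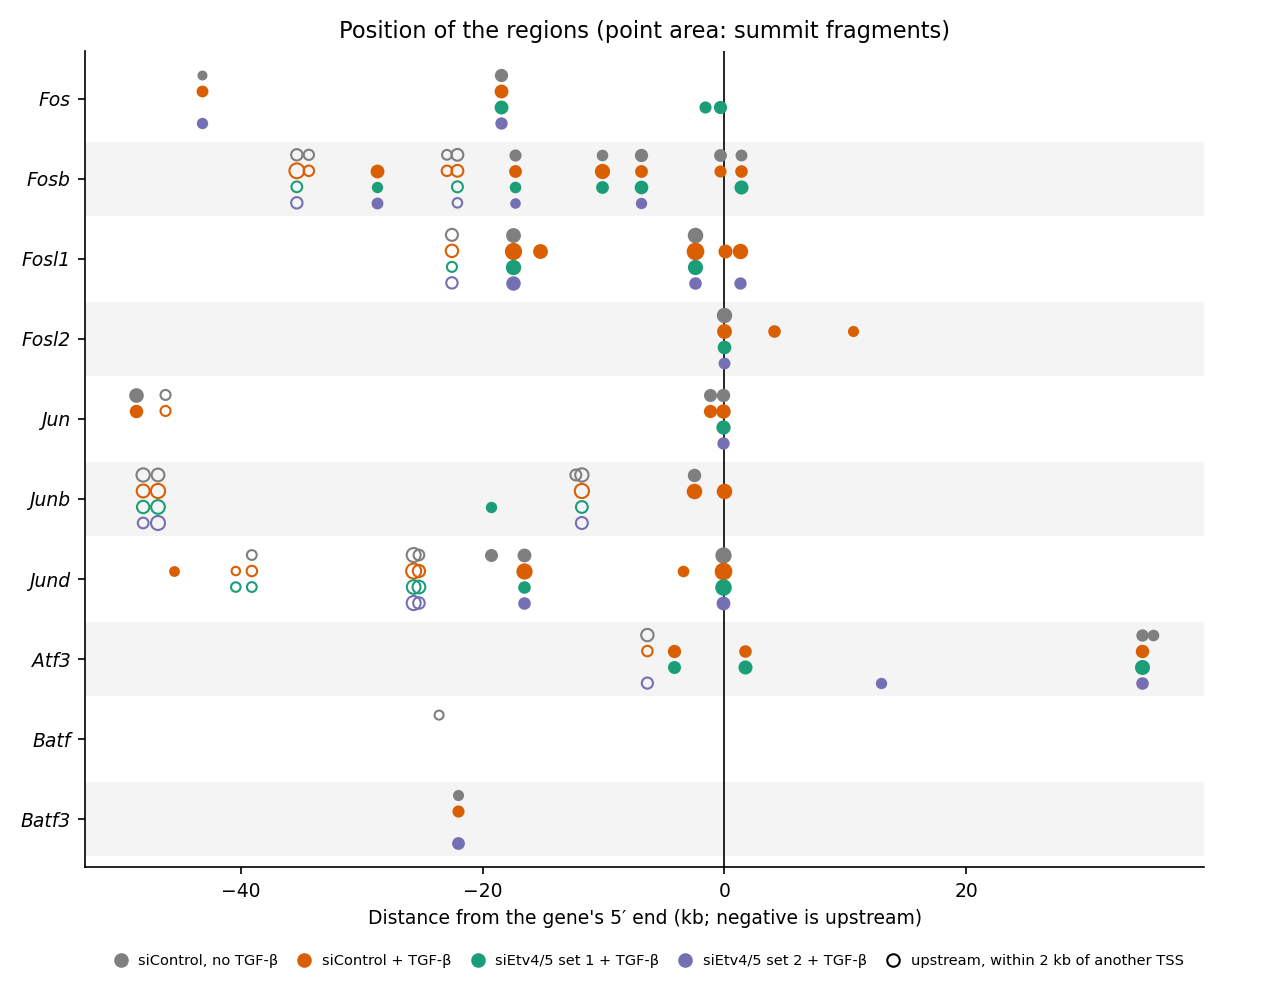
Position of each region relative to the 5′ end of its gene (x axis, kb, upstream negative), 1 band per gene and 1 row of points per library, with point area proportional to summit fragments and open points for upstream regions within 2 kb of the TSS of another gene. At Jun, the 2 regions near -46.2 and -48.7 kb have points in the untreated and TGF-β-treated siControl rows alone.

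The 51 regions ranged from those called in 1 library to those called in all. All 4 libraries shared 18 of them (35.3%, beside 29.6% of all regions), and 15 were called in 1 library (29.4%, beside 31.5%). Regions called in all 4 libraries made up 4 of the 14 at the genes' own promoters, 8 of the 16 upstream regions at the TSS of another gene and 6 of the 18 other upstream regions, beside 0 of 3 in gene bodies. Over all regions, the share was 42.8% within 2 kb of a TSS and 23.1% farther away. Of the 15 regions in a single library, 7 were in TGF-β-treated siControl (13.7% of the 51, beside 16.1% of all regions) and 4 in the untreated library (7.84%, beside 7.72%). A further 3 were in set 1 (5.88%, beside 5.85%) and 1 in set 2 (1.96%, beside 1.80%). Another 7 regions (13.7%, beside 7.05% of all regions) were called in both siControl libraries and with neither siRNA set: 3 at Fosb, 3 at Jun and 1 at Junb. The 3 regions called in every library but set 2 made up 5.88%, beside 11.6%. No interval is given for these shares.

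A promoter region, with its middle within 2 kb of a TSS of the gene, was called at 5 of the 10 genes in the untreated library, where 36.1% of protein-coding genes had one. The number was 7 of 10 in TGF-β-treated siControl (38.1% of protein-coding genes), 6 of 10 in set 1 (34.2%) and 5 of 10 in set 2 (27.3%). Fosl2, Jun, Jund and Atf3 had a promoter region in every library, and Batf and Batf3 had none in any. Fosb lacked one in set 2, Fosl1 had one in TGF-β-treated siControl and in set 2, Junb had one in TGF-β-treated siControl alone, and Fos had one in set 1 alone. An uncalled promoter is not a closed one. At a local background between 2 and 3 fragments, the lowest summit called anywhere held 14 fragments in the untreated library, 14 in TGF-β-treated siControl, 13 in set 1 and 13 in set 2, so that weaker openings could not be seen at this depth.

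**Figure D3:**
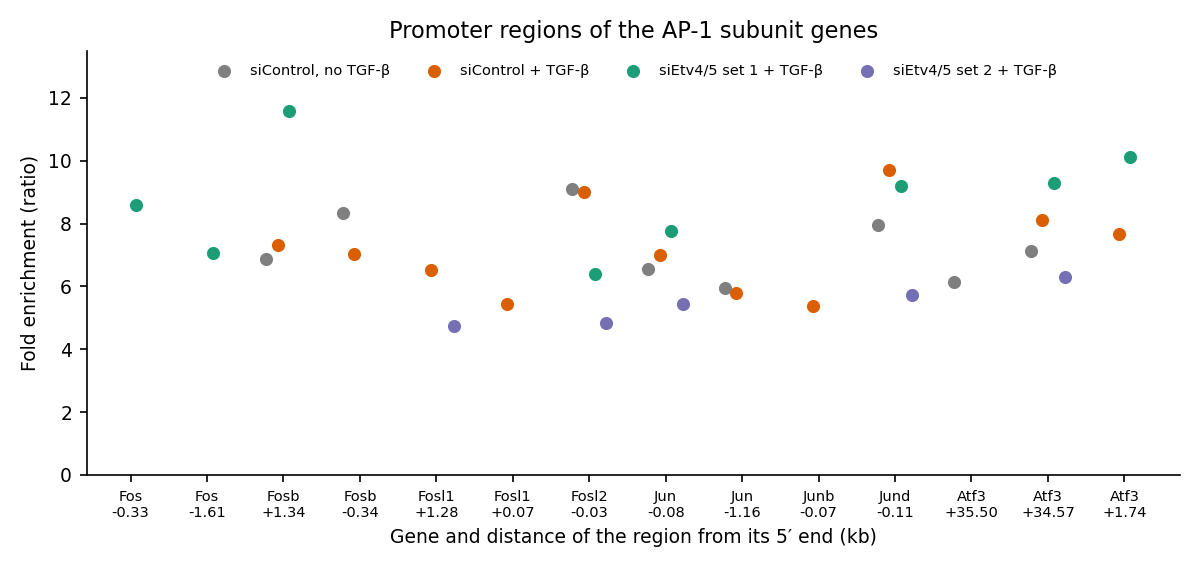
Fold enrichment (y axis, ratio of summit to local background) of the 14 promoter regions of the AP-1 subunit genes (x axis, gene and distance from its 5′ end in kb), with 1 point for each library in which the region was called. Jun -0.08, Fosl2 -0.03, Jund -0.11 and Atf3 +34.57 have 4 points each, and the set 2 point is the lowest of the 4 at each of them.

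Fos, the founding subunit and an immediate early gene, had 4 regions, and the pair nearest its start was called in set 1 alone. The region at -0.329 kb had 26 summit fragments and a fold enrichment of 8.59 in set 1, and the region at -1.61 kb had 21 fragments and 7.06. Farther upstream, the region at -18.5 kb was present in every library, with 26 summit fragments untreated, 29 with TGF-β, 29 in set 1 and 22 in set 2. The region at -43.2 kb, in an intron of the lincRNA gene Gm40477, held 13 fragments untreated, 20 with TGF-β and 18 in set 2, and was not called in set 1. Thus the library with the promoter call was the one that lacked the farthest region. The promoter region is printed because it covers the serum response element, where serum response factor binds the CArG box. It lies at chr12:85473487-85473636 (mm10, + strand), and the CArG box in capitals begins at -309 bp from the 5′ end.
Fos promoter region: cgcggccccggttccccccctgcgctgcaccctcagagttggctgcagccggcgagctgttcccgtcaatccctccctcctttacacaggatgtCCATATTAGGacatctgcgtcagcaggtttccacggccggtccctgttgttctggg

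Fosb, which has the same dimer partners as Fos, had the largest set of regions. Near its start, the region at -0.341 kb held 24 summit fragments untreated and 21 with TGF-β and was called with neither siRNA set. The intronic region at +1.34 kb, 894 bp downstream of the nearest Fosb TSS, held 20 fragments untreated, 23 with TGF-β and 30 in set 1, with fold enrichments of 6.86, 7.33 and 11.6, and was not called in set 2. Both Fosb promoter regions were thus absent from set 2, and 1 of them from set 1.

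Between Fosb and Ercc1, a DNA repair gene, lay the lincRNA gene D830036C21Rik with a series of regions. The regions at -6.92, -17.3 and -22.1 kb were called in every library. Their summits held 26, 21 and 29 fragments untreated, 24, 24 and 29 with TGF-β, 28, 19 and 25 in set 1, and 18, 15 and 19 in set 2, so set 2 had the lowest count at each. The region at -10.1 kb held 19 fragments untreated, 36 with TGF-β and 24 in set 1 and was not called in set 2. Its fold enrichment was 6.25 untreated and 9.65 with TGF-β, a ratio of 1.55, and the interval of the FPM ratio ran from 0.994 to 3.28. The region at -23.0 kb, at the TSS of the lincRNA gene Gm44698, held 20 fragments untreated and 23 with TGF-β, and the region at -34.4 kb, at -350 bp from the Ercc1 TSS, held 22 and 23. Neither was called with an siRNA set. The region at -35.4 kb, in an intron of Ercc1, held 27 fragments untreated, 46 with TGF-β, 24 in set 1 and 27 in set 2. Its count was highest in TGF-β-treated siControl. The interval of the FPM ratio to the untreated library included 1 (1.60, 0.974 to 2.68). The FPM ratio of set 1 to TGF-β-treated siControl was 0.491 (95% counting interval 0.287 to 0.822), and that of set 2 was 0.462 (0.276 to 0.759).

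The Fosb region at -28.8 kb was called in the 3 libraries that received TGF-β and not in the untreated one. Its summit held 29 fragments in TGF-β-treated siControl, 18 in set 1 and 20 in set 2. It is printed because it holds 1 of the 2 cAMP response elements found at these genes, given in capitals and beginning at -28827 bp. It lies at chr7:19338704-19338903 (mm10, - strand, as Fosb reads).
Fosb upstream region: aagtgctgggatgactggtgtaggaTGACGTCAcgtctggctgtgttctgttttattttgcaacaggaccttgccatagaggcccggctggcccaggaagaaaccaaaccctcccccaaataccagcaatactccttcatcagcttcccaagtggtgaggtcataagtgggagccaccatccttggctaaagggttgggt

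Fosl1, which encodes Fra-1, had 6 regions, and the 3 missing from the untreated library were all called in TGF-β-treated siControl. At +0.073 kb, over an exon at the start of the gene, TGF-β-treated siControl had 30 summit fragments and a fold enrichment of 5.44, and no other library had a call. At +1.28 kb, in an intron, it had 37 fragments and 6.54, and set 2 had 22 fragments and 4.74. At -15.3 kb, it had 34 fragments and 5.05, and was again alone. The local background at these 3 summits in TGF-β-treated siControl was 4.69, 4.81 and 5.93 fragments, above the median of 1.80 over all its peaks, so more fragments were needed there for a call.

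The other Fosl1 regions were called in every library. At -2.40 kb the summit held 38 fragments untreated, 51 with TGF-β, 36 in set 1 and 23 in set 2, and the fold enrichments were 9.17, 9.87, 8.67 and 5.47. Here set 2 lay well below TGF-β-treated siControl, at an FPM ratio of 0.355 (0.207 to 0.592), the lowest of any AP-1 region, while the interval for set 1 included 1 (0.665, 0.421 to 1.04). At -17.5 kb there were 34, 48, 37 and 32 summit fragments in that order, and at -22.5 kb, beside the TSS of Drap1, there were 30, 32, 21 and 27. The interval of the FPM ratio of set 2 to TGF-β-treated siControl lay below 1 at the first of these (0.525, 0.325 to 0.838) and included 1 at the other (0.664, 0.383 to 1.14). The region at -2.40 kb and the intronic region at +1.28 kb are printed, the first for its range over the libraries and the second for its AP-1 motif, which is in capitals and begins at 1308 bp. They lie at chr19:5445029-5445267 and chr19:5448744-5448913 (mm10, + strand).
Fosl1 -2.40 kb region: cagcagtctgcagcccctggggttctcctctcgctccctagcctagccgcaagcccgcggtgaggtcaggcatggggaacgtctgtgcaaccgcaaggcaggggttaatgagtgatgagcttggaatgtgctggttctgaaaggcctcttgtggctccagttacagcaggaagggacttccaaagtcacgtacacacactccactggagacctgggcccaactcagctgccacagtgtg
Fosl1 intronic region: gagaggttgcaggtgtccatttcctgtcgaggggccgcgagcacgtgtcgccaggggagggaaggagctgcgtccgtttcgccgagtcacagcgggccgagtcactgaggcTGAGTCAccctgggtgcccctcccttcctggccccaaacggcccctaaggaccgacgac

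Fosl2, which encodes Fra-2, had a promoter region in every library, at -0.027 kb. Its summit held 37 fragments untreated, 34 with TGF-β, 28 in set 1 and 20 in set 2, with fold enrichments of 9.10, 9.01, 6.41 and 4.84. The siControl libraries were nearly level here and set 2 was the lowest, with an FPM ratio to TGF-β-treated siControl of 0.463 (0.253 to 0.828) beside 0.776 (0.453 to 1.32) for set 1. The intronic regions at +4.14 kb, with 23 fragments, and at +10.7 kb, with 17, were called in TGF-β-treated siControl alone. No region lay in the 50 kb upstream of Fosl2 beyond its promoter.

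Jun, the main partner in AP-1 dimers, had 4 regions, of which 1 was shared by all libraries. This was the promoter region at -0.080 kb, with 27 summit fragments untreated, 32 with TGF-β, 31 in set 1 and 22 in set 2, and fold enrichments of 6.57, 7.01, 7.76 and 5.43. The other 3 regions were called in both siControl libraries and with neither siRNA set. At -1.16 kb the summit held 25 fragments untreated and 26 with TGF-β, at -46.2 kb 21 and 21, and at -48.7 kb 33 and 27. All 4 regions lay in introns of Junos, an antisense gene on the opposite strand, so they cannot be assigned to Jun alone. The promoter region is printed for the variant AP-1 site TGACATCA, known as a site through which Jun acts on its own promoter, and the -48.7 kb region for its AP-1 motif and its absence with both siRNA sets. The capitals begin at -45 bp and at -48693 bp. The 198 printed bases of the promoter lie at chr4:95052223-95052420 and leave out the transcribed end of the region, and the second region lies at chr4:95100826-95100981 (mm10, - strand, as Jun reads).
Jun promoter region: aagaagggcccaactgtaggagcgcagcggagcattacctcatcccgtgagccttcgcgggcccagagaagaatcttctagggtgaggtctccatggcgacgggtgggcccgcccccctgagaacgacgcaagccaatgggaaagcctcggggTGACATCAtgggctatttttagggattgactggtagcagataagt
Jun far upstream region: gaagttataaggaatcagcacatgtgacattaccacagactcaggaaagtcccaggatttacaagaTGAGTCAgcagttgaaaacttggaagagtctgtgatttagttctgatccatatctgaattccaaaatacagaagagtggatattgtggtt

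Junb, which often opposes Jun in growth control, had no promoter region outside TGF-β-treated siControl. There the region at -0.070 kb held 38 summit fragments over a background of 6.24, a fold enrichment of 5.39. At such a background, between 6 and 7 fragments, the lowest called summits held 27 fragments in the untreated library, 28 in set 1 and 28 in set 2. The region at -2.52 kb, over a like background, held 27 fragments untreated and 38 with TGF-β and was called with neither siRNA set. Upstream, 3 regions next to other genes were present in all libraries. The region at -11.8 kb, at the TSS of Hook2, held 37 fragments untreated, 42 with TGF-β, 29 in set 1 and 30 in set 2. The regions at -46.9 and -48.1 kb, between Asna1 and Trir, held 34 and 37 fragments untreated, 42 and 35 with TGF-β, 39 and 32 in set 1 and 41 and 24 in set 2. The set 2 count was thus inside the range of the other libraries at the first of this pair and the lowest at the other. Scaled for depth, set 2 was the lowest at both. At the first it had an FPM of 1.98, beside 2.22 untreated, 2.58 with TGF-β and 2.26 in set 1. The region at -12.3 kb, in an intron of Hook2, had 25 fragments and was called in the untreated library alone. The promoter region is printed since its call in TGF-β-treated siControl set that library apart with the lists as deposited. The 109 printed bases lie at chr8:84978749-84978857 (mm10, - strand, as Junb reads), and none of the 5 motifs searched was found in them, while CCGGAAG was found in the wider 500 bp window.
Junb promoter region: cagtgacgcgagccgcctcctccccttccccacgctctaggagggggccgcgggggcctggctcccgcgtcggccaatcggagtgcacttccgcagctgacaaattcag

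Jund, the most broadly expressed Jun gene, had the strongest promoter region of the set by fragments. Its summit at -0.111 kb held 42 fragments untreated, 51 with TGF-β, 44 in set 1 and 29 in set 2, with fold enrichments of 7.94, 9.70, 9.18 and 5.71. The set 2 library was again below TGF-β-treated siControl, at an FPM ratio of 0.448 (0.274 to 0.720), and set 1 was at 0.812 (0.530 to 1.24). At -16.6 kb, between Jund and Lsm4, the summit held 29 fragments untreated, 42 with TGF-β, 23 in set 1 and 23 in set 2, and the fold enrichments were 7.76, 11.4, 6.50 and 6.04. Both siRNA sets were lower than TGF-β-treated siControl there, at FPM ratios of 0.516 (0.296 to 0.877) for set 1 and 0.431 (0.248 to 0.734) for set 2. For TGF-β against untreated, the ratio was 1.36 (0.828 to 2.26). With the Ercc1 region upstream of Fosb, this was 1 of 2 regions whose interval lay below 1 for both siRNA sets. Over all regions, the interval lay below 1 at 4.05% for set 1 and at 33.2% for set 2. The share of all regions below 1 for both is not given. Both ratios use the same count of TGF-β-treated siControl, so they are not independent. The -16.6 kb region is printed with its AP-1 motif in capitals, which begins at -16618 bp, and lies at chr8:70682279-70682510 (mm10, + strand).
Jund upstream region: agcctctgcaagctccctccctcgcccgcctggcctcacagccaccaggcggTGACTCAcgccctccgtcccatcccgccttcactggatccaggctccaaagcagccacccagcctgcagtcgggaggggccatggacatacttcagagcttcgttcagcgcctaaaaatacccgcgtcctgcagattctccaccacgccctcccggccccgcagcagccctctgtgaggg

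Of the remaining Jund regions, 4 lay at the TSSs of other genes and 3 did not. At Lsm4, a splicing factor gene, the region at -25.7 kb held 41 fragments untreated, 47 with TGF-β, 39 in set 1 and 41 in set 2, and that at -25.3 kb held 24, 31, 34 and 28 in the same order. Scaled for depth, set 2 was the lowest at both, with an FPM of 1.98 beside 2.89 in TGF-β-treated siControl at -25.7 kb and 1.36 beside 1.91 at -25.3 kb. The intervals of these ratios included 1 (0.687, 0.441 to 1.07, and 0.711, 0.411 to 1.23). At Pgpep1, the region at -39.1 kb held 20 fragments untreated, 23 with TGF-β and 20 in set 1, and that at -40.4 kb held 15 with TGF-β and 19 in set 1. The region at -19.3 kb, with 25 fragments, was called in the untreated library alone, and those at -3.42 and -45.6 kb, with 19 and 16, in TGF-β-treated siControl alone.

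Atf3, a stress-induced factor that dimerizes with Jun proteins and is a known target of TGF-β and Smad3, has 2 TSSs 34.7 kb apart. Its internal promoter region at +34.6 kb was called in every library. The summit held 22 fragments untreated, 27 with TGF-β, 35 in set 1 and 23 in set 2, with fold enrichments of 7.13, 8.12, 9.28 and 6.30, and set 1 had the highest value. In both siRNA libraries this region was made of 2 peaks. Near the upstream TSS, the intronic region at +1.74 kb held 23 fragments with TGF-β and 30 in set 1, and the region at -4.18 kb held 26 and 25. Both were called in TGF-β-treated siControl and in set 1, and not in the untreated library or in set 2. The region at -6.37 kb, at the TSS of the lincRNA gene D730003I15Rik, held 32 fragments untreated, 23 with TGF-β and 26 in set 2 and was not called in set 1. Single calls were found at +35.5 kb, with 19 fragments in the untreated library, and at +13.0 kb, with 18 in set 2. The region at +1.74 kb is printed as 1 of those that appeared with TGF-β, with its AP-1 motif in capitals beginning at 1728 bp, and lies at chr1:191216200-191216392 (mm10, - strand, as Atf3 reads).
Atf3 intronic region: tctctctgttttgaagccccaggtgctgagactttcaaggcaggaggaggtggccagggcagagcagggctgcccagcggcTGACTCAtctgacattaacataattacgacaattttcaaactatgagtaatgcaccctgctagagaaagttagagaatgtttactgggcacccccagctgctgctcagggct

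Batf and Batf3 each had 1 region. That of Batf, at -23.6 kb, held 17 fragments in the untreated library alone. That of Batf3, at -22.1 kb in an intron of Nsl1, held 17 fragments untreated, 21 with TGF-β and 24 in set 2. Neither gene had a call within 2 kb of its TSS in any library.

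To ask which regions appeared or disappeared with TGF-β, the siControl libraries were compared by overlap of at least 1 bp. At the AP-1 genes, 12 of the 43 peaks in TGF-β-treated siControl had no counterpart in the untreated library, which is 27.9% (95% Wilson interval 16.7 to 42.7) beside 37% of all peaks. In the other direction, 4 of the 35 untreated peaks had none with TGF-β, which is 11.4% (4.54 to 26.0) beside 18.4%. The 12 included all of the Fosl1 regions missing from the untreated library, both Fosl2 intronic regions, the Junb promoter, the Fosb region at -28.8 kb, the Atf3 regions at +1.74 and -4.18 kb and 3 weak Jund regions with 15 to 19 fragments. The 4 lay at Jund (-19.3 kb), Junb (-12.3 kb), Atf3 (+35.5 kb) and Batf. The order of these counts rested on list length: with the 14925 most significant peaks of each library, 4 of 20 were gained, which is 20% beside 34.4% of all peaks, and 8 of 24 lost, which is 33.3% beside 34.3%.

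With set 1, 18 of the 43 peaks of TGF-β-treated siControl had no counterpart, which is 41.9% (28.4 to 56.7) beside 33.6% of all peaks, and 3 of the 29 set 1 peaks were added, which is 10.3% (3.58 to 26.4) beside 15.2%. With set 2, 20 of the 43 were absent, which is 46.5% (32.5 to 61.1) beside 53.6%, and 1 of 25 was added, which is 4% (0.710 to 19.5) beside 10.3%. With the lists as deposited, each interval included the share over all peaks. At equal list length, 5 of 20 peaks were absent in set 1, which is 25% beside 31.4% of all peaks, and 6 of 21 added, which is 28.6% beside 31.4%. In set 2, 2 of 20 were absent, which is 10% beside 33.4%, and 6 of 25 added, which is 24% beside 33.0%. No intervals are given for the shares at equal list length, so the statement on intervals above does not cover them. The excess of absent over added peaks was not kept. The peaks absent in set 1 had 16 to 38 summit fragments in TGF-β-treated siControl. They included the 3 Jun regions other than that at -0.080 kb, the Fosb promoter region at -0.341 kb, all 3 Fosl1 regions that appeared with TGF-β, and both Junb regions near the gene. The added peaks were the pair at the Fos promoter and 1 in a Hook2 exon in set 1, and the Atf3 intronic region at +13.0 kb in set 2.

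At the 18 AP-1 regions called in all 4 libraries, the size of the signal could be compared. Fold enrichment with TGF-β was higher than untreated at 13 of 18, which is 72.2% beside 68.3% of all regions, with a median log2 ratio of 0.15 beside 0.14 for the 10594 such regions in all. The range at the AP-1 genes ran from -0.37 at Fosb -6.92 kb to 0.59 at Fosb -35.4 kb, and 1 of 18 was higher by at least 1.5-fold, beside 6.54% of all regions, and 0 were lower by as much, beside 0.821%. Set 1 was lower than TGF-β-treated siControl at 13 of 18 and higher at 27.8%, beside 26.4% of all regions, with a median log2 ratio of -0.12 beside -0.18, and 2 of 18 were lower by at least 1.5-fold, beside 7.16%, and 0 higher, beside 0.387%. Set 2 was lower at 18 of 18, with a median of -0.40 beside -0.40, and 5 of 18 were lower by at least 1.5-fold, beside 26.8%, and 0 higher, beside 0.104%. A higher value than in TGF-β-treated siControl was seen in set 2 at 9.10% of all regions. Taken relative to the median over all regions, the AP-1 medians changed sign, to 0.056 in set 1 and 0.0050 in set 2, and were close to 0.

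**Figure D4:**
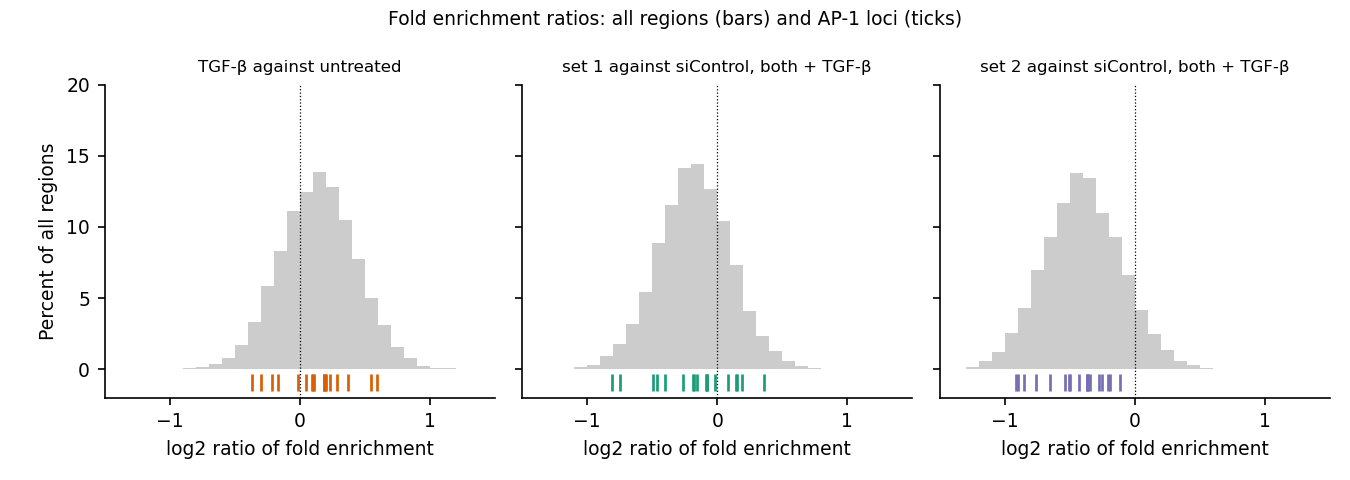
Percent of all regions called in all 4 libraries (y axis) by log2 ratio of fold enrichment (x axis, bars), in 3 panels for TGF-β against untreated, set 1 and set 2 against TGF-β-treated siControl, with ticks under the bars for the 18 AP-1 regions. The ticks span the bulk of the bars in each panel, and all 18 lie below 0 in set 2.

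Counting error set how far single regions could be separated. Of the 31 AP-1 regions called in both siControl libraries, 0 had an FPM ratio whose interval excluded 1, beside 2.12% above and 0.149% below 1 over all regions. For set 1, 2 of 25 had an interval below 1, beside 4.05%, and 0 above 1, beside 0.0578%. For set 2, 13 of 23 lay below 1, beside 33.2%, and 0 above 1, beside 0.00751%. At those 23 regions the median log2 FPM ratio of set 2 was -0.88, beside -0.67 over all regions called in both, and at the 18 called in all 4 it was -0.89 beside -0.71. AP-1 peaks had a median of 29 fragments per summit in TGF-β-treated siControl, beside 23 over all peaks, and a median background of 2.83, beside 1.80, and the part of these in the share of intervals below 1 was not tested. The set 2 library was the deepest by estimate and had the fewest peaks, and its median fold enrichment over all peaks was 7.15 beside 8.44 in TGF-β-treated siControl. The part of library quality in the lower set 2 values was not tested.

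**Figure D5:**
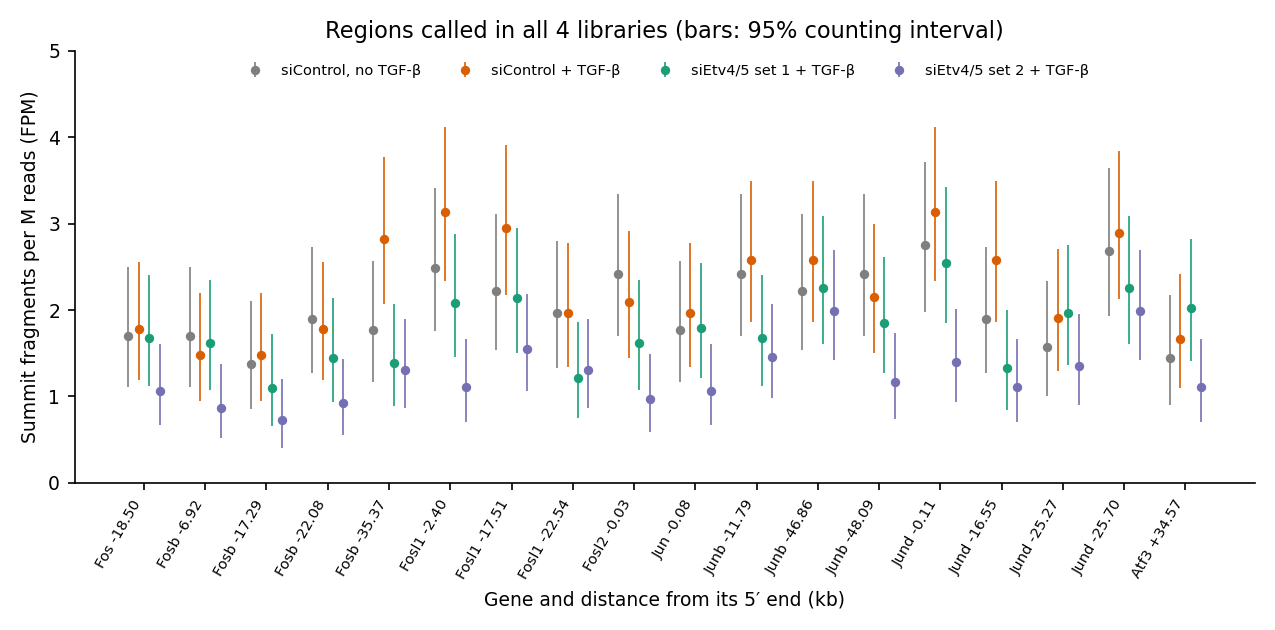
Summit fragments per M reads (y axis, FPM) at the 18 AP-1 regions called in all 4 libraries (x axis, gene and distance from its 5′ end in kb), with 95% counting intervals as bars and 1 color per library. Set 2 lies below TGF-β-treated siControl at all 18, beside 97.2% of all regions called in all 4 libraries. The bars of the siControl libraries overlap throughout.

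The DNA of the regions was searched for motifs in 500 bp around each middle, on both strands, and a match describes letters and not binding. TGANTCA was found in 22 of the 51 regions (43.1%, 30.5 to 56.7), beside 43.6% of all regions. Among regions within 2 kb of any TSS, it was found in 11 of 30 at the AP-1 genes (36.7%, 21.9 to 54.5), beside 19.2% of all such regions. Among those farther away, the share was 11 of 21 (52.4%, 32.4 to 71.7), beside 55.5%. Of those near a TSS, 7 of the 11 lay at TSSs of other genes. There, 7 of 16 regions held the motif (43.8%, 23.1 to 66.8), an interval above 19.2%. The subunit genes' own promoters held it in 4 of 14 (28.6%, 11.7 to 54.6), an interval that included 19.2%. The ETS motif CCGGAAG, the type of site bound by Etv4 and Etv5, was found in 6 of 51 (11.8%, 5.51 to 23.4), beside 8.79%. The cAMP response element TGACGTCA, palindromic like TGANTCA, was found in 2 of 51 (3.92%, 1.08 to 13.2), beside 1.75%, namely the Fosb -28.8 kb and Jund promoter regions. The CArG box was found in 4 of 51 (7.84%, 3.09 to 18.5), beside 2.63%, and in 3 of 51 (5.88%, 2.02 to 15.9), beside 2.63%, with the window placed on the summit, where the interval included the share of all regions. The variant TGACATCA, added after the regions had been seen, was found in 4 of 51 (7.84%), beside 3.69%.

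TGANTCA was found in 7 of the 18 regions called in all 4 libraries and in 15 of the 33 called in fewer. No share over all regions stands beside these counts, and the part of distance to a TSS in them was not tested. Over all regions, those within 2 kb of a TSS were more often called in all 4 libraries (42.8%, beside 23.1% farther away). They held the motif less often (19.2%, beside 55.5%). The median GC content of the 500 bp windows was 57.6% at the AP-1 genes and 48.6% over all regions. In RefSeq promoters (GRCm38.p6, 250 bp before to 50 bp after the start), available for 9 of the 10 genes, TGACATCA was found at Jun, beside 3.62% of all 32851 promoters, and CCGGAAG at Batf, beside 8.86%. TGANTCA, TGACGTCA and the CArG box were found at none, beside 7.81%, 1.79% and 1.63%. These windows leave out 2 sites described above. The CArG box of Fos, at -309 bp, lies before its window. RefSeq and GENCODE place some starts differently: the RefSeq start of Jund lies 1210 bp upstream of the GENCODE 5′ end, and that of Atf3 is the internal promoter. The Jund window therefore does not reach the Jund promoter region with TGACGTCA, and the absence of these 2 sites there says nothing about the genes.

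Other genes of the pathway were taken as 2 lists. The 11 AP-1 partners and relatives (Atf2, Atf7, Jdp2, Batf2, the Maf genes Maf, Maff, Mafg and Mafk, Nfe2l2, Bach1 and Bach2) held 56 peaks untreated, 60 with TGF-β, 50 in set 1 and 39 in set 2, and a promoter region was called at 9, 8, 8 and 6 of them. The 11 upstream kinases and factors (Mapk3, Mapk8, Mapk9, Mapk14, Map2k1, Map2k4, Map2k7, Srf, Elk1, Elk3 and Elk4) held 23, 30, 25 and 14 peaks, with promoter regions at 7, 8, 7 and 5. Over all protein-coding genes, the share with a promoter region was 36.1% untreated, 38.1% with TGF-β, 34.2% in set 1 and 27.3% in set 2. With the peak lists as deposited, TGF-β-treated siControl had the most peaks and set 2 the fewest in both gene lists, as at the subunit genes. This is also the order of the list lengths at these ends. At the subunit genes it was not kept at equal list length. Promoters were called in all 4 libraries at 5 genes of the first list and 4 of the other. Fold enrichment was higher with TGF-β than untreated at 4 and 3 of these, beside 68.3% of all regions called in all 4. It was lower than in TGF-β-treated siControl at 3 and 3 in set 1 and at 5 and 4 in set 2. Over all such regions, set 1 was higher at 26.4% and set 2 at 9.10%. As single examples, the promoter of Mafk, a small Maf gene, had fold enrichments of 8.68 untreated, 13.1 with TGF-β, 7.42 in set 1 and 8.92 in set 2. Its summit held 26, 44, 26 and 33 fragments in that order. The promoter of Srf, which encodes serum response factor, had 12.5, 9.98, 9.57 and 7.74, with 44, 33, 35 and 29 fragments. No counting intervals are given for these.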

How the data were processed

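FAIRE-seq libraries of 4 groups were sequenced on an Ion Proton, mapped to mm10 with Bowtie and given to MACS2 for peak calling at a q-value below 0.0001. The submitters' processing notes name MACS2 2.1.0, and the study's methods give another version. The deposited lists hold, per peak, a fold enrichment (a ratio made by the authors), summit significance computed by the authors as a -log10 p-value and as a -log10 q-value, and a whole-number score, which MACS2 takes from the q-value. Groups came from the labels.

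Summit fragments k and background b were solved from the deposited fold enrichment, (k + 1)/(b + 1), and the Poisson p-value, and k was whole within 0.05 in 100% of peaks. Depth was the lowest background times 1.87 Gb over the shortest peak width. Overlapping peaks were merged into regions, and the strongest peak per library was kept. Intervals are at 95%: exact Poisson for FPM, Wilson for shares, and exact conditional binomial, scaled by depth, for FPM ratios. Genes and TSSs came from GENCODE vM21, which has the same 22 chromosomes as the lists, with 0 peaks beyond their ends. Scripts used Python 3.11.15, numpy 2.4.6, pandas 2.3.3, scipy 1.17.1 and pysam 0.24.0 and were tested on simulated data.

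All 10 genes are named. Promoter regions, regions called in at least 2 libraries and those with at least 25 summit fragments are given with values. The members, the lists and the comparisons were chosen with earlier results of these data known. Alternatives were a stricter q-value, equal list length, other windows, other overlaps and other scales. Of the genes listed for the pathway, 2 are not reported here and enter none of the counts of these lists.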

Additional observations from a re-analysis of the deposited data

How the results depend on the processing

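Of 77 values recomputed under alternatives for 30 results, 54 stayed within the spread or within 1.5 times the value reported and 23 moved. With 10 kb upstream, peaks at the AP-1 genes numbered 13 untreated, 20 with TGF-β, 13 in set 1 and 10 in set 2. With 100 kb upstream they numbered 58, 69, 53 and 44. Without peaks at promoters of other genes they numbered 19, 28, 18 and 15. With 14925 peaks per library, they numbered 24 untreated, 20 with TGF-β, 21 in set 1 and 25 in set 2. TGF-β-treated siControl then held the fewest and set 2 the most, the reverse of the lists as deposited. Gained peaks then numbered 4 of 20, lost 8 of 24, absent in set 1 5 of 20, added in set 1 6 of 21, absent in set 2 2 of 20 and added in set 2 6 of 25, beside 31.4% to 34.4% of all peaks. Shorter lists leave fewer peaks to count, and the rest of the cause was not tested. On the FPM scale, the median log2 ratio was -0.33 for set 1, beside -0.26 over all regions, and -0.89 for set 2, beside -0.71. On fold enrichment and relative to the median over all regions it was 0.056 and 0.0050, no longer below 0. FPM uses a depth estimate that fold enrichment does not. The stricter q-value, which removed few peaks from any list and so tests little, the overlap of at least 50%, the promoter definitions and the motif windows moved no count by over 1.5 times. No paired analysis was possible because each group held 1 library. With no replicates, no replicate could be left out.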

Other observations

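Fos and Batf are neighbors on chromosome 12, and the 209 kb between them held 9 regions outside the windows described above, among them several near Jdp2, which encodes a repressor that dimerizes with Jun. Of these, 5 were called untreated, 6 in TGF-β-treated siControl, 6 in set 1 and 3 in set 2. The region 29.1 kb upstream of Jdp2 was called in every library, with 23 summit fragments untreated, 26 with TGF-β, 25 in set 1 and 25 in set 2. Batf3 and Atf3 are neighbors on chromosome 1, and the 61.4 kb between them held 2 regions. The first held 16 fragments untreated, 25 with TGF-β and 16 in set 1. The other held 25 with TGF-β and 20 in set 1 and was not called untreated. Neither was called in set 2.

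In the 50 kb downstream of the 10 genes lay 27 regions, of which 2 fell in the windows of both Batf3 and Atf3 and were counted at each, with a median of 2.5 per gene beside 1 for all protein-coding genes. The 4 downstream of Fos and the 2 shared by Batf3 and Atf3 are among the regions between neighbors given above. Fosl1 and Jun had the most downstream regions, with 5 each. The 3 regions downstream of Fosl2 were called in TGF-β-treated siControl in 3 cases, in set 1 in 2 and in set 2 in 2, and untreated in 0.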
